A study of Homo sapiens with 2 samples.

Results

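RUNX1 binding around 10 genes of the Notch pathway was read from a chromatin immunoprecipitation sequencing (ChIPseq) peak list of genetically modified MCF10A cells. Unmodified MCF10A is a human breast epithelial line that does not form tumors. A peak was a member when its summit, the position of highest signal, lay in the GRCh38 RefSeq interval of NOTCH1, NOTCH2, NOTCH3, NOTCH4, JAG1, JAG2, HES1, HES4, RBPJ or MAML3, or within 100 kb on either side. This gave 33 of the 13591 peaks in the list, and no peak belonged to more than 1 of the genes. There were 2 libraries, 1 from the RUNX1 immunoprecipitate and 1 of input DNA without antibody, so that no value has a replicate. Both came from cells in which RUNX1 had been deleted and a lentiviral, doxycycline-inducible RUNX1 had been put back, and both were given doxycycline at 1 µg/ml for 24 hours. RUNX1 was therefore present at the level set by the vector, and the deletion lines of the study were grown from single cell colonies. The ChIP library kept 80338845 tags and the input library 87410774. The intervals given with pileups are exact 95% Poisson intervals and cover counting error only.

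Notch receptors (NOTCH1 to NOTCH4) are cell surface proteins that are cut when a ligand such as JAG1 or JAG2 on a neighbouring cell binds them. The freed intracellular domain enters the nucleus and joins the DNA-binding protein RBPJ and a Mastermind coactivator such as MAML3. Genes of the HES family, which encode transcriptional repressors, are well known targets of this complex. In the mammary gland, Notch signalling takes part in the choice between luminal and basal cell fates. The study used the data to ask whether RUNX1 sits on NOTCH3. An earlier ChIPseq of the study had found no binding of the cells' own RUNX1 at NOTCH3, and the inducible line was used after that. With it the study reported a site in the NOTCH3 locus and proposed that direct regulation is possible.

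Each of the 10 genes had at least 2 peaks within reach. The share of all 20033 protein-coding genes with a peak by the same rule was 68.2%, and the 10 genes had been listed with earlier results of these data known, so nothing is read from their count. Inside the genes lay 9 of the 33 summits, 18 lay upstream of the 5′ end and 6 beyond the 3′ end. The tallest peak was a distal one, 52.6 kb upstream of NOTCH1, and the next tallest stood 1.64 kb upstream of HES1. By contrast, the peak inside NOTCH3 was among the lower ones.

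**Figure D1:**
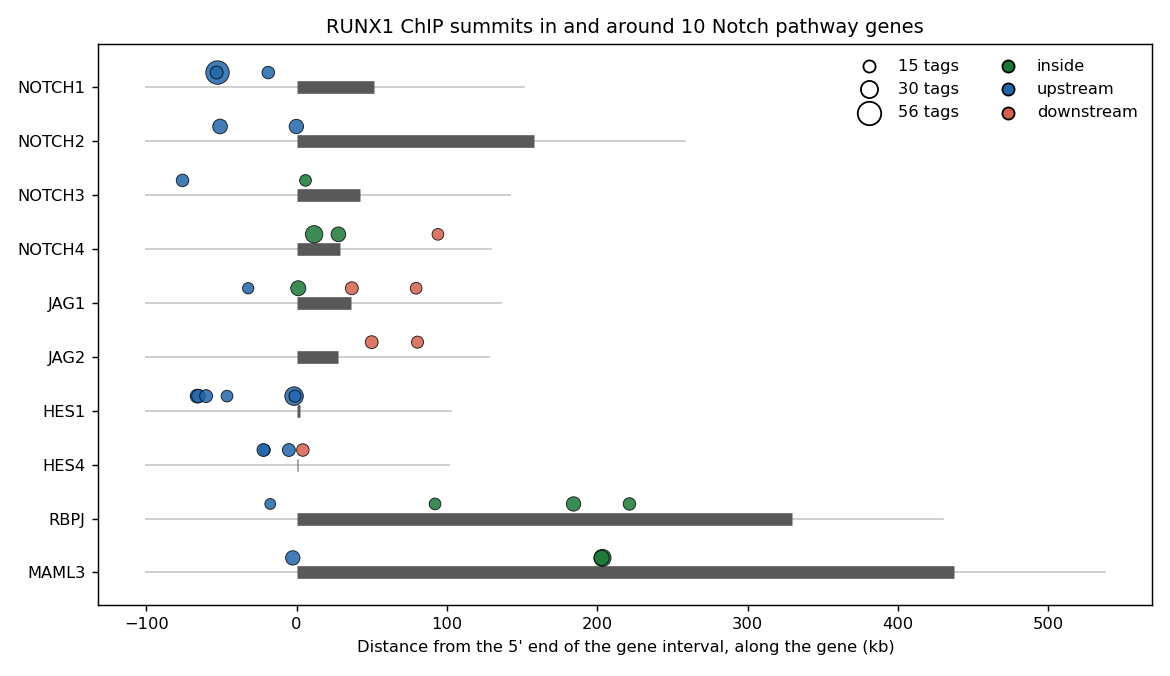
Each row is 1 gene, drawn from its 5′ end (0 kb) as a dark bar with a thin line for the 100 kb on either side, and each circle is a peak summit whose area follows its pileup in ChIP tags. Circles are green inside the gene, blue upstream and red downstream; the 3 NOTCH1 peaks and the 6 HES1 peaks are all upstream, and both JAG2 peaks are downstream.

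One peak stood on the start site of a listed gene, that of NOTCH2, and its bases are shown because the sequence there bears on how the peak can be read. It spanned chr1:120069587-120069847 (261 bp) with a summit 116 bp upstream of the NOTCH2 start. The promoter window that RefSeq gives for NOTCH2 on GRCh38.p14, chr1:120069613-120069912 on the minus strand, runs from 250 bases before to 50 after the start and shares 235 bases with the peak. Also shown is the window of NOTCH2NLC, chr1:149390371-149390670 on the plus strand, a partial copy of NOTCH2 on the same chromosome. Capitals mark TGCGGT, a form of the RUNX recognition core.
NOTCH2: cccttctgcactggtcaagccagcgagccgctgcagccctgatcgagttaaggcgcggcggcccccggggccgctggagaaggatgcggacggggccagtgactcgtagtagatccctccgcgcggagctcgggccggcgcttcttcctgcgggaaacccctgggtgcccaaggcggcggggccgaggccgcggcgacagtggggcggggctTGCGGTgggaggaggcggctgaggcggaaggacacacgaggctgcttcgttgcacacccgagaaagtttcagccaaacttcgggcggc
NOTCH2NLC: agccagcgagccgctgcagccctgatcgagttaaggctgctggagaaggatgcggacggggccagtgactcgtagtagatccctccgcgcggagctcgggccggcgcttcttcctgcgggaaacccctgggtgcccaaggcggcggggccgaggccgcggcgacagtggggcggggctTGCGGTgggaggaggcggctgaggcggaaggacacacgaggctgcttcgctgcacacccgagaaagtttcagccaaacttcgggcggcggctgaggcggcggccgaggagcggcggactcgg

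The letters TGTGGT and TGCGGT were searched on both strands, as were ACCACA and ACCGCA, their reverse complements. In the NOTCH2 window TGTGGT was not found, and TGCGGT occupied bases 213 to 218, which is 78 to 83 bases from the summit at base 135. Over all 35116 RefSeq promoter windows of this length, 13.1% held TGTGGT and 7.29% held TGCGGT. Over the 440 windows with a summit of any peak these shares were 35.9% (95% Wilson interval 31.6 to 40.5%) and 37.7% (33.3 to 42.3%). Windows can overlap, and the NOTCH2 summit also lies in the window of a non-coding RNA, LOC101929178. The windows are thus not independent, and the intervals may be too narrow. The median share of G and C bases was 62.3% in windows with a summit and 58.7% over all windows, and its part in these shares was not tested. The search for TGCGGT was added after the NOTCH2 sequence had been read. Of the promoter windows of the other 9 genes, that of MAML3 held TGTGGT and that of JAG2 held TGCGGT, and no summit lay in either.

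NOTCH2 (chr1:119911553-120069662) encodes a receptor, and its start site peak had a pileup of 21 tags (13.0 to 32.1) and a fold enrichment of 6.87, the ratio of the pileup to the local background after adding 1 to each. The local background there, called the input level, was at the genome-wide background of 2.20 tags. No peak of the list had a lower level, so this value stands for an input at or below that background. Input levels rest on few tags and are given without intervals. The start of the long non-coding RNA LOC101929178, which runs the opposite way, lay 50 bp from the same summit, nearer than NOTCH2. The same bases occur again on chromosome 1. In a global alignment, 264 to 284 of the 300 bases of the NOTCH2 window were identical in a window of NOTCH2NLA, NOTCH2NLB, NOTCH2NLC and NOTCH2NLR, with 1 to 3 mismatches, and the rest lay opposite gaps.

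Peaks also stood at the starts of 3 of these 4 copies. NOTCH2NLC had 30 tags (20.2 to 42.8) at 146 bp upstream of its start, NOTCH2NLB 21 tags (13.0 to 32.1) at 99 bp and NOTCH2NLA 20 tags (12.2 to 30.9) at 77 bp. In the same order, their input levels were 1.54, 1.21 and 1.11 times the genome background and their fold enrichments 7.04, 5.99 and 6.10. NOTCH2NLR had 0 peaks in or within 5 kb. These heights do not differ from that at NOTCH2 beyond their intervals. How tags that match several copies were placed is not given in the sources used here, so the start site peaks of NOTCH2 and its copies are uncertain as to which gene they belong to.

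The other NOTCH2 peak, chr1:120120445-120120740 (296 bp), stood 50.9 kb upstream with 22 tags (13.8 to 33.3) and a fold enrichment of 6.12. SEC22B, which encodes a protein of vesicle transport, was nearer, at 30.4 kb. The pseudogene RNU6-465P was nearer still, at 6.43 kb. Over the body of NOTCH2, which is 158 kb long, no summit was listed.

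NOTCH1 (chr9:136494433-136546048) had 3 peaks, none of them inside it or closer than 5 kb. The tallest, chr9:136598203-136598893, was 691 bp long and lay 52.6 kb upstream. Its pileup was 56 tags (42.3 to 72.7), its fold enrichment 15.2 and its −log10 q, the strength of the call after adjustment by the peak caller, 46.8. In the whole list it ranked 47 by −log10 q, and 0.721% of peaks had a higher pileup. The input level there was 1.25 times the genome background. A lower peak of 214 bp began 146 bp further from the gene, with 17 tags (9.90 to 27.2) and a fold enrichment of 5.62, so that the interval of the tall peak lay wholly above that of its neighbour.

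The NOTCH1 peak nearest to the gene was also its weakest. It lay 18.8 kb upstream, was 74 bp long, the shortest length the caller allows, and had 16 tags (9.15 to 26.0) with a fold enrichment of 3.64 over an input level of 1.67 times the genome background. A non-coding gene was nearer than NOTCH1 for all 3 peaks, LINC01451 at 13.4 kb for the tall one. Among protein-coding genes NOTCH1 was the nearest for all 3. The next was EGFL7, which encodes a secreted factor of blood vessels, at 60.3 kb from the tall summit.

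NOTCH3 (chr19:15159038-15200995), the receptor the study asked about, had 1 peak in the gene and 1 distal peak. The inner peak, chr19:15195013-15195193 (181 bp), lay 5.97 kb into the gene from its start site and had 14 tags (7.65 to 23.5), a fold enrichment of 4.68 and an input level at the genome background. The distal peak lay 75.8 kb upstream and was 74 bp long with 16 tags (9.15 to 26.0). Thus NOTCH3 had the lowest tallest peak of the 10 genes, and 57.7% of protein-coding genes had a peak at least as tall within the same reach. The interval of the inner peak overlapped those of all other members except the tall NOTCH1 peak and the tallest HES1 peak, whose lower limit was 24.4 tags.

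NOTCH4 (chr6:32194843-32224067) carried 2 peaks inside the gene. The one at chr6:32212159-32212446 (288 bp) was 11.7 kb into the gene, with 31 tags (21.1 to 44.0) and a fold enrichment of 5.72. Its input level was 4.60 tags or 2.09 times the genome background, the highest value among the 33 peaks and shared with 1 HES1 peak. This level rests on few tags and has no interval, and the part of that background in the height was not tested. The one at chr6:32196160-32196330 (171 bp), 27.8 kb into the gene, had 22 tags (13.8 to 33.3), a fold enrichment of 6.54 and an input level of 1.14 times background. The second summit lay 714 bp upstream of the start site of GPSM3, which encodes a modulator of G protein signalling. That start site was nearer to it than the NOTCH4 start site. A peak of 14 tags (7.65 to 23.5) at 64.8 kb downstream lay inside FKBPL. The 100 kb around NOTCH4 are crowded, with 12 other protein-coding genes.

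**Figure D2:**
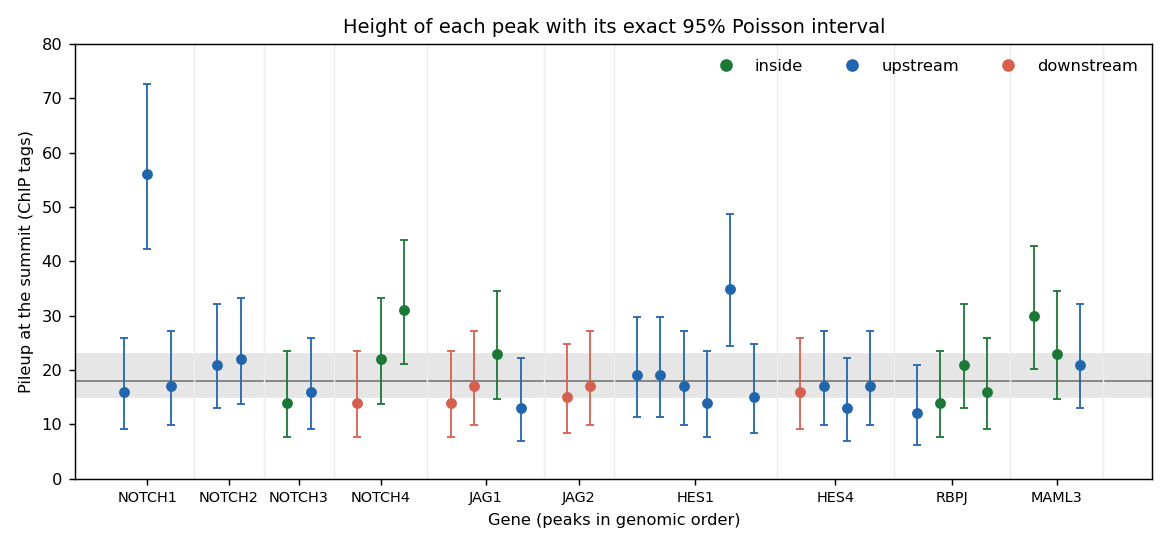
The pileup at the summit (ChIP tags, axis from 0) is drawn for each of the 33 peaks with its exact 95% Poisson interval, grouped by gene and coloured by position; the grey line and band are the median (18) and quartiles (15 and 23) of all 13591 peaks. The tall peaks of NOTCH1 (56 tags) and HES1 (35 tags) have intervals that lie above the band.

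JAG1 (chr20:10637684-10673999), a ligand, had 4 peaks spread on both sides. The tallest, chr20:10672612-10672986 (375 bp), lay inside the gene 1.16 kb from its start, with 23 tags (14.6 to 34.5) and a fold enrichment of 7.50 over an input level at the genome background. Just past the 3′ end, at 467 bp, was a 200 bp peak of 17 tags (9.90 to 27.2). The 2 far peaks were among the weakest of the 33. One lay 32.2 kb upstream with 13 tags and a fold enrichment of 2.99, and the other 43.2 kb downstream with 14 tags and a fold enrichment of 3.21, inside SLX4IP. Both had an input level of 1.67 times the genome background, and their −log10 q of 1.41 and 1.93 did not reach a q limit of 0.01. For the upstream peak JAG1 was the nearest gene of any kind.

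JAG2 (chr14:105140995-105168776), the other ligand, had 2 peaks, both beyond its 3′ end. They lay 22.2 kb away with 17 tags (9.90 to 27.2) and 52.7 kb away with 15 tags (8.40 to 24.7), and were 186 and 103 bp long. LINC02298 was nearer to both. GPR132, which encodes a G protein-coupled receptor, was nearer than JAG2 to the second, at 22.9 kb. JAG2 and NOTCH1 were the genes whose peaks were all more than 5 kb away.

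RBPJ (chr4:26105449-26435131) encodes the DNA-binding partner of the cleaved receptors. It had 3 peaks inside its 330 kb interval, with 14, 21 and 16 tags and lengths of 82, 125 and 130 bp, and 1 peak of 12 tags (6.20 to 21.0) at 17.5 kb upstream, the lowest of the 33. The RefSeq promoter windows used here give RBPJ 5 start sites, none of them at the 5′ end of its interval. The nearest summit to any of these sites was 5.66 kb inside. The summit with 21 tags (13.0 to 32.1) also lay in the non-coding gene LOC105374542 and had an input level of 1.67 times the genome background. Thus RBPJ had no peak of 30 tags or more despite its length.

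MAML3 (chr4:139716753-140154184) encodes a coactivator that joins RBPJ on DNA. A pair of peaks 270 bp apart lay deep inside the gene, 203 kb from its start, at chr4:139950591-139950762 (172 bp) and chr4:139951033-139951359 (327 bp). The first had 30 tags (20.2 to 42.8), a fold enrichment of 9.68 and an input level at the genome background, and ranked 765 by −log10 q. The second had 23 tags (14.6 to 34.5) and a fold enrichment of 6.39. The taller of the pair was the shorter, and their heights did not differ beyond their intervals. Another peak of 21 tags (13.0 to 32.1) stood 2.51 kb upstream of the start, with an input level of 1.67 times the genome background. No other gene was nearer to any of the 3 summits.

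HES1 (chr3:194136148-194138732), a repressor gene that Notch switches on in many tissues, had the most peaks of the 10 genes, 6, all upstream. By count, 5.49% of protein-coding genes had as many within the same reach, and by peaks per Mb of window HES1 had 29.6, a density reached by 1.99%. As HES1 was the highest of 10 genes listed with earlier results known, nothing is read from these shares. Near the start was a pair of peaks 300 bp apart. The one farther from the start, chr3:194134395-194134741 (347 bp) at 1.64 kb, had 35 tags (24.4 to 48.7), a fold enrichment of 11.2 and an input level at the genome background, and ranked 396 by −log10 q. The one nearer to the start, at 1.04 kb, was 92 bp long with 15 tags (8.40 to 24.7). Their intervals overlapped narrowly.

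The other 4 HES1 peaks lay 46.2 to 66.2 kb upstream, with 14 to 19 tags. Each summit lay inside LINC02028, LOC102724877 or both, so that HES1 was not the nearest gene. A pair of 19 tags each (11.4 to 29.7) stood 775 bp apart there, and its members had fold enrichments of 6.16 and 3.57 over input levels of 1.02 and 2.09 times the genome background. One summit of this pair was 46 bp inside the start of LINC02028.

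HES4 (chr1:998964-1000097), a repressor gene related to HES1, had 4 peaks of 13 to 17 tags, and thus no tall one. One lay 3.06 kb past its 3′ end with 16 tags (9.15 to 26.0), and 1 lay 5.09 kb upstream with 17 tags (9.90 to 27.2). A pair 568 bp apart, 21.2 and 22.0 kb upstream with 13 and 17 tags, was inside AGRN, which encodes a proteoglycan of basement membranes. With 10 other protein-coding genes within 100 kb, HES4 and NOTCH4 had the most crowded surroundings.

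In height and length the 33 peaks were close to the list as a whole. Their median pileup was 17 tags (quartiles 15 and 21, range 12 to 56), beside 18 (15 and 23) for all peaks. Their median length was 157 bp (quartiles 103 and 200, range 74 to 691), beside 153 bp. The input level was at the genome background for 12 of them, or 36.4%, beside 39.5% of all peaks. A pileup of 30 tags or more was reached by 4 of the 33, or 12.1%, beside 9.88% of all peaks, and these 4 belonged to NOTCH1, NOTCH4, HES1 and MAML3. Of all protein-coding genes, 14.0% had such a peak within 100 kb. Fold enrichments of at least 10 were found at NOTCH1 and HES1, beside 6.27% of protein-coding genes.

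**Figure D3:**
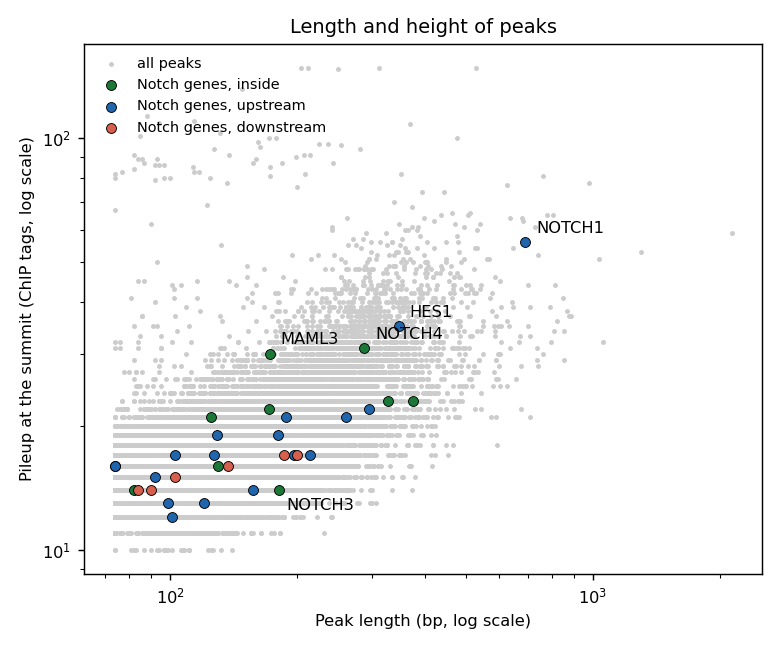
Pileup at the summit (ChIP tags) is plotted against peak length (bp), both on log scales, for all peaks in grey and for the 33 peaks of the Notch genes in colour. The upstream NOTCH1 peak (691 bp, 56 tags) stands apart from the other 32, whereas the NOTCH3 peak inside the gene (181 bp, 14 tags) lies low in the cloud.

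Peaks in the gene or within 5 kb were higher than the far ones in the median. The 15 near peaks had a median of 21 tags and the 18 far peaks one of 16.5 tags, although the tallest peak of all was a far one. The 6 downstream peaks ranged from 14 to 17 tags, all under the median of the whole list. Upstream peaks ranged from 12 to 56 tags and inner ones from 14 to 31. These are descriptions of 1 library, and no test between positions was made.

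Of the 10 genes, 8 had a summit in the gene or within 5 kb, where 24.8% of all protein-coding genes did. A summit inside the gene was listed for 5 of the 10, beside 18.7% of protein-coding genes. The genes had been chosen partly for such peaks, so these counts are no evidence of a preference.

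The distal peaks were often closer to another gene. Another gene was nearer for 18 of the 33 summits, a long non-coding RNA for 9 of them, 1 tied with a protein-coding gene, a protein-coding gene alone for 7 and a pseudogene for 2. When protein-coding genes alone could be nearer, the count was 11. Over the 35657 pairs of a protein-coding gene and a peak within its reach, a nearer gene of any kind existed in 76.4%, beside 54.5% here. A nearer protein-coding gene existed in 67.0%, beside 33.3% here. A summit inside its own gene can have no nearer gene, and 27.3% of the 33 were inside, beside 18.5% of the pairs. Since the genes had been chosen partly for near peaks, nothing is read from these differences. Outside the genes, 6 summits had no nearer gene. These belonged to JAG1 (2), HES1 (2), HES4 (1) and MAML3 (1). Which gene a distal peak acts on was not measured.

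Several of the peaks came in pairs. Another peak lay within 1 kb, edge to edge, of 10 of the 33 peaks, or 30.3%, beside 13.0% of all peaks. They formed 5 pairs, 1 each at NOTCH1, HES4 and MAML3 and 2 at HES1. Both peaks of a pair are counted, and the genes had been listed with earlier results known, so nothing is read from this share. The taller peak was the longer in 3 pairs and the shorter in the MAML3 pair, and the far HES1 pair was even in height.

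No summit lay between 75.8 and 100 kb from a gene. The first summits past the 100 kb limit were 100.4 kb from HES4 with 33 tags (fold enrichment 10.6), 104 kb from HES1 with 17 tags (fold enrichment 4.79) and 108 kb from NOTCH4 with 39 tags (fold enrichment 8.55). For the other 7 genes the first summit past the limit lay 124 to 405 kb away, with 14 to 34 tags.

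**Figure D4:**
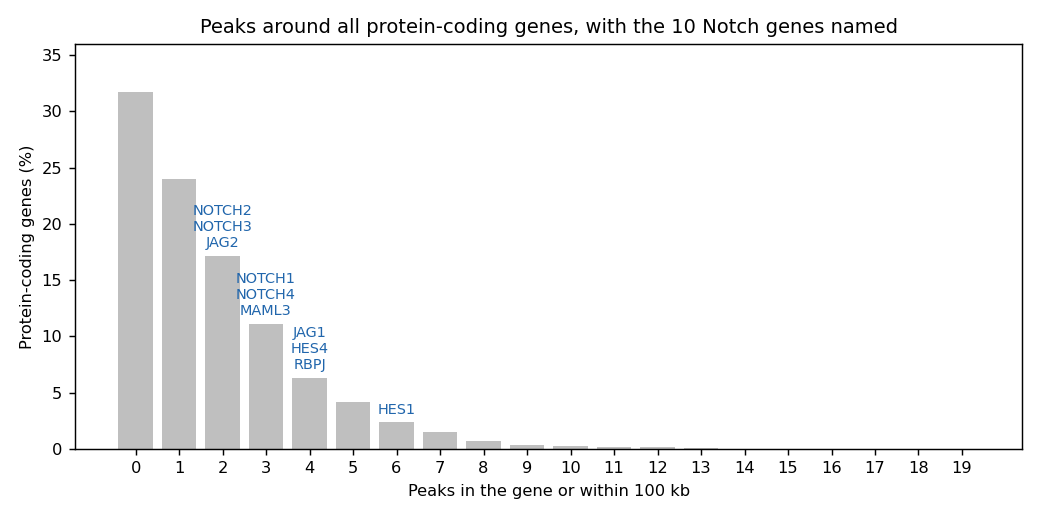
Bars give the percentage of 20033 protein-coding genes (axis from 0) with each number of peaks in the gene or within 100 kb, and the 10 Notch genes are named above the bar of their own count. The genes hold 2 to 6 peaks each, where the median of all protein-coding genes is 1 and the upper quartile 3. Counts also depend on gene length, as windows ran from 201 kb (HES4) to 637 kb (MAML3). Per Mb of window the 10 genes had a median of 10.4 peaks (lowest 4.71, at MAML3), beside 4.73 for all protein-coding genes. The genes had been listed with earlier results known, so nothing is read from these differences.

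Among 26 further genes of the pathway, listed with earlier results of these data known, 18 or 69.2% had a peak within 100 kb and 2 or 7.69% had one in the gene or within 5 kb. With the 10 genes above, that made 28 of 36 (77.8%) and 10 of 36 (27.8%), beside 68.2% and 24.8% of protein-coding genes. Among those with an inner peak was LFNG, which encodes a glycosyltransferase that modifies the receptors. LFNG (chr7:2512529-2529177) held 1 of 20 tags (12.2 to 30.9), with a taller one of 26 tags (17.0 to 38.1) at 18.6 kb.

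By role, a peak within 100 kb was listed for 2 of the 3 other ligands (DLL1 and DLL4, but not DLL3), for all 3 fringe glycosyltransferases and for 4 of the 6 genes of receptor cleavage. It was also listed for 3 of 6 nuclear cofactors, 4 of 5 target genes and 2 of 3 modulators. MAML2, a relative of MAML3, had 0 peaks.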

How the data were processed

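The authors deposited 1 peak list, made with MACS 2.1.2 from 1 RUNX1 ChIP library against 1 input library with q-values up to 0.05. Per the file headers, tags of 54 bp were extended to 74 bp, 1 tag per position and strand was kept, and both libraries were brought to the size of the smaller. The submitters' processing notes name Bowtie2 and hg38. The deposited pileup is a signal that counts extended ChIP tags at the summit. The deposited fold enrichment is a ratio, and the deposited p-value and q-value are −log10 values. Before filtering, the libraries held 89501295 and 94686274 tags.

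Summits were placed in gene intervals of RefSeq GRCh38.p14 with Python 3.11.15 and pandas 2.3.3, a step that was tested on simulated data. The input level was recovered as (pileup + 1) / fold enrichment − 1. Start sites and strands came from the RefSeq promoter table, and all 10 symbols were matched. Windows were aligned with Biopython 1.88. Other settings were a stricter q limit (0.01), a minimum fold enrichment of 5, windows of 50 and 200 kb, any base of a peak, merging within 1 kb, and nearness by protein-coding genes or start sites. Named genes were the 10 genes, the genes in or nearest to their peaks, and other pathway genes with a peak within 5 kb. Further genes, such as the copies of NOTCH2, were named after their values were seen. The members and lists were chosen with earlier results of these data known. Some neighbouring and pathway genes are not reported here.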

Additional observations from a re-analysis of the deposited data

How the results depend on the processing

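With 1 ChIP library, no value has a replicate, so differences under the counting intervals were not detectable. Of 32 alternatives over 6 results, 25 left counts within 1.5 times and the other values within their 95% interval. The 10 genes each kept a peak under all settings but a minimum fold enrichment of 5, where 9 did and NOTCH3 did not. That setting left 15 of the 33 peaks, 7 of them with another gene nearer. With 50 kb on either side 9 peaks had another gene nearer, and with 200 kb there were 56 peaks, 41 of them with another gene nearer; these follow from the width of the window. Letting protein-coding genes alone be nearer gave 11. By start sites it was 21, with a promoter table that lacks some genes. TGTGGTT, added after seeing the data, was found in 22.3% of promoter windows with a summit, fewer by construction. The planned motif search in peaks was not run, since no genome sequence was used. No paired analysis was possible because neither group has more than 1 library.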

Other observations

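Away from their starts, the copies of NOTCH2 held further peaks that NOTCH2 itself did not. NOTCH2NLA and NOTCH2NLB each had a summit of 16 tags (9.15 to 26.0) inside the gene, 38466 and 38509 bp from the respective start sites, with fold enrichments of 4.63 and 4.72 and lengths of 76 and 79 bp. NOTCH2NLB had 1 more, of 13 tags (6.92 to 22.2). The positions of the first 2 in their genes differ by less than the length of either peak. NOTCH2NLA and NOTCH2NLB are near-identical copies, and whether these are separate sites or tags shared between copies cannot be told apart.

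Peaks with the same pileup over the genome background carry identical values by construction. The inner NOTCH3 peak, the FKBPL peak near NOTCH4 and 1 peak inside RBPJ all had 14 tags, a fold enrichment of 4.68 and a −log10 q of 4.31, so these 3 cannot be ranked against each other.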
